A study of Mus musculus with 5 samples.

Results

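Transcripts of 40 genes that take glucose across the cell membrane, break it down to pyruvate, interconvert pyruvate and lactate and feed the tricarboxylic acid (TCA) cycle were followed through 18 marker-gated cell populations of the newborn mouse hippocampus. The members were taken from a fixed list by gene symbol. They are 40 of the 32285 features counted, and all 40 were found. Each gene was followed as its level in each gated cell type, as the isozyme chosen where several genes encode the same step, and as the difference between genotypes over libraries.

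The single-cell libraries were made from dissociated hippocampi of pups at postnatal day 1, with droplet barcoding and counting of unique molecular identifiers (UMIs) at the 3′ end of transcripts. There were 2 libraries from Trem2 knockout (KO, -/-) pups, numbered 2 and 3, and 3 libraries from wild-type (WT, +/+) pups, numbered 1, 2 and 3. Each library pooled the hippocampi of 2 pups, so pups could not be separated. A library's description gives 2 males for KO 2 and for WT 2, and 1 female with 1 male for KO 3, WT 1 and WT 3, while its sex field reads male and female throughout. Trem2 encodes a surface receptor of microglia. The genotypes are given for the whole animal, the sources used here name no allele or strain, and the series title places the study's question in neuronal energy supply during development. All p-values below measure the spread between these libraries.

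As background, glucose enters brain cells through facilitative carriers. Hexokinase traps it as a phosphate, the hexose phase splits it into trioses, and the triose phase recovers ATP and yields pyruvate. Pyruvate is then either reduced to lactate, which crosses membranes on monocarboxylate carriers, or enters mitochondria through the pyruvate carrier and is turned into acetyl-CoA for the TCA cycle by pyruvate dehydrogenase. Several steps have tissue-specific isozymes, and in the brain the endothelium, astrocytes and neurons are known to use different ones.

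Levels of 4 members differed more than 100-fold between the highest and the lowest cell type, and their promoter windows are shown for that reason. The sequences are from RefSeq on GRCm38.p6, each 300 bases long from 250 bases before to 50 bases after the annotated start, in the gene's own direction. Capitals mark ACGTG, the core letters of the hypoxia response element, searched on both strands, so that CACGT in capitals is the same motif on the opposite strand and CACGTG holds an overlapping match on each strand.
Slc2a1, chr4:119108495-119108794, plus strand: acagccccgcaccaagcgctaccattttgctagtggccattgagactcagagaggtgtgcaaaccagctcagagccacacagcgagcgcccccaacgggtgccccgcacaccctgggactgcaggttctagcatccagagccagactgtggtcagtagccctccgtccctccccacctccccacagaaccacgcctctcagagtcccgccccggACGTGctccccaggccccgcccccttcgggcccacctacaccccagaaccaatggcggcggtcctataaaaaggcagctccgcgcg
Slc16a1, chr3:104638414-104638713, plus strand: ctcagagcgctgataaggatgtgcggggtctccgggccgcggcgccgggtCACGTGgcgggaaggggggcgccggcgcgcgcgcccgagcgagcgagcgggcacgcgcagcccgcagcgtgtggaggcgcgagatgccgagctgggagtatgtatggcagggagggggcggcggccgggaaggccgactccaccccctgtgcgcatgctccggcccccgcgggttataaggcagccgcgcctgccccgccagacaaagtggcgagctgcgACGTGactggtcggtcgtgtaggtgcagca
Aldoc, chr11:78322823-78323122, plus strand: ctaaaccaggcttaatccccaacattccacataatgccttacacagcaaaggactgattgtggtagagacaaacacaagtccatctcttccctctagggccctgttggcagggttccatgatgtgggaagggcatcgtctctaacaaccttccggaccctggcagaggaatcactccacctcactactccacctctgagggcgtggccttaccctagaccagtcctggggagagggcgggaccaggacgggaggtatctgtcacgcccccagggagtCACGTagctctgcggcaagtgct
Hk2, chr6:82774405-82774704, minus strand: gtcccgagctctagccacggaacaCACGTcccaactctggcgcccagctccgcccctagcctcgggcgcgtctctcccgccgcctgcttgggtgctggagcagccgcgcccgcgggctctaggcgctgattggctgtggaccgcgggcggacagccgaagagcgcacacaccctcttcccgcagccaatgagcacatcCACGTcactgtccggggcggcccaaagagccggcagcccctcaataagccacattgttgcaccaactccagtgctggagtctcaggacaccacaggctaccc
The Slc2a1 and Aldoc windows held 1 match each, the Hk2 window held 2 and the Slc16a1 window held 3. Of the 37 members with a promoter in the table, 14 held the motif (37.8%), against 5315 of 27025 promoters of all genes (19.7%). A match of these letters is a description of the sequence and not a binding site.

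Totals ran between 60024793 and 91205882 UMIs per library, and 29106 of 40345 barcodes passed the cell filters and doublet removal. Marker genes gated 24356 of these cells (83.7%). The sizes ran from 150 border macrophages and 237 microglia to 5495 astroglia and 11344 excitatory neurons over the 5 libraries. The excitatory gate holds CA1, CA3 and dentate neurons, and the astroglial gate holds dividing, Aqp4-expressing and other astroglia, with the cells between these gates in none of them. Any pair of libraries shared 12 to 26 cell barcodes, at most 0.35% of the smaller library. Trem2 itself followed the labels: microglia held 60.9 and 82.7 CPM (counts scaled to the UMIs of the gated cells of a library) in KO 2 and KO 3, against 1472, 1567 and 1284 CPM in WT 1, WT 2 and WT 3. Several markers kept out of the gates were not highest in the named population. Nrn1 was at 40.5 CPM in excitatory neurons and 463 CPM in Cajal-Retzius cells. Lefty1, for CA1, was at 4.38 CPM there and 11.3 CPM in fibroblasts. The CA3 markers Nectin3 and Elavl2 were at 198 and 476 CPM in CA3, against 300 CPM in CA1 and 696 CPM in interneurons. Csf1r and C1qa were at similar levels in microglia and border macrophages. The astroglial markers Mlc1 and Clu were at 311 and 713 CPM in Aqp4 astroglia, against 374 and 780 CPM in ependymal cells. Bcan, for oligodendrocyte precursors, was at 480 CPM there and 815 CPM in Aqp4 astroglia. Cxcr4, for Cajal-Retzius cells, was at 49.3 CPM there and 52.2 CPM in ependymal cells. The dentate markers Dsp, Plk5 and Pitpnm2 were at 2.73, 1.94 and 9.69 CPM in the dentate gate, where the gating genes Dock10 and C1ql2 were also near 0 (2.21 and 0.554 CPM). That gate therefore rests on Prox1, Calb2, Igfbpl1 and Sema5a, of which Calb2 was higher in Cajal-Retzius cells and Igfbpl1 in intermediate progenitors. Microglia numbered 14 and border macrophages 8 in KO 3, mural cells 16 in WT 2, and mural and endothelial cells 20 each in KO 2. These populations rest on few cells there.

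**Figure D1:**
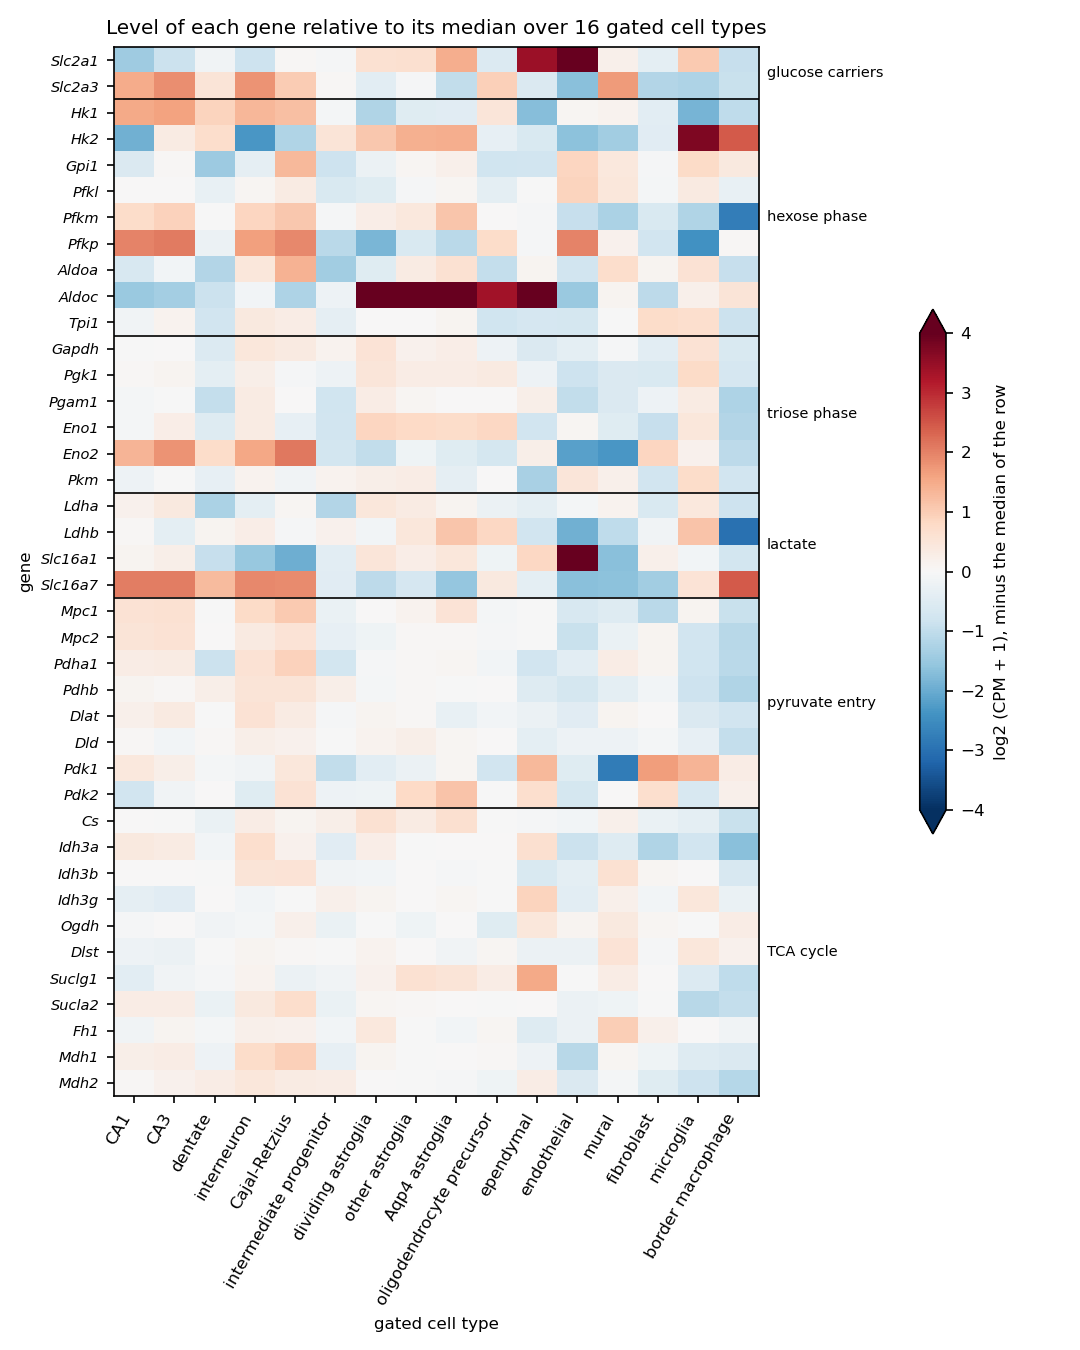
Mean level over 5 libraries of each of the 40 genes (rows, by pathway step) in the 16 gates that do not contain one another (columns), as log2 (CPM + 1) minus the median of the row, so that red is above and blue below the gene's median. Slc2a1 and Slc16a1 are darkest in endothelium, Aldoc in astroglia and ependymal cells and Hk2 in microglia, while most TCA cycle genes have paler rows.

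The 40 genes ran from a few that marked single cell types to others that every cell type held at similar levels. Levels are CPM, a gene's UMIs in the gated cells of a library scaled to 1000000 UMIs. UMIs of 3′ tags count molecules and are not scaled to transcript length, and capture can differ between transcripts. Over the 16 gates that do not contain one another, the highest mean was under 2 times the lowest for 2 members, Dlst (1.74) and Ogdh (1.97), which encode successive subunits of the 2-oxoglutarate dehydrogenase complex. It was 2 to 4 times the lowest for 16 members, 4 to 10 times for 10 and at least 10 times for 11. Eno2 had no ratio because its lowest level, in mural cells, was 0. The ratio passed 100 for Aldoc (720), Slc2a1 (466), Hk2 (193) and Slc16a1 (106).

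Cajal-Retzius cells held the highest mean of 7 members and microglia of 6, and Aqp4 astroglia, CA3 neurons and interneurons held that of 4 each. For 11 members every library of the highest type lay above every library of every other type. Summed over all 40 genes, Aqp4 astroglia were at 7010 ± 254 CPM (SD, n = 5 libraries), Cajal-Retzius cells at 6667 ± 162 CPM and interneurons at 6173 ± 89.1 CPM. The lowest sums were 3790 ± 116 CPM in dentate neurons and 2865 ± 298 CPM in border macrophages. Glycolytic and mitochondrial genes did not follow the same order. The 15 hexose and triose phase genes summed to 4175 ± 190 CPM in Aqp4 astroglia, 3341 ± 90.3 CPM in Cajal-Retzius cells and 1551 ± 62.8 CPM in dentate neurons. For the 19 genes of pyruvate entry and the TCA cycle the sums were 2846 ± 60.9 CPM in Cajal-Retzius cells, 2678 ± 62.1 CPM in interneurons, 2172 ± 62.9 CPM in Aqp4 astroglia and 1354 ± 71.7 CPM in endothelium.

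The glucose carriers set endothelium apart from neurons. Slc2a1, which encodes GLUT1, the carrier of the blood-brain barrier, was at 1542 and 774 CPM in KO endothelium, against 932, 1181 and 972 CPM in WT endothelium. Every one of these libraries was above every library of any other type; the next mean, 93.5 ± 31.7 CPM, was in ependymal cells. Aqp4 astroglia held 23.2 ± 3.48 CPM and CA1 neurons, the lowest type, 2.32 CPM. Slc2a3, which encodes the neuronal carrier GLUT3, was highest in CA3 neurons at 31.9 and 35.2 CPM in KO libraries, against 38.6, 37.1 and 38.7 CPM in WT libraries. The CA3 mean of 36.3 ± 2.85 CPM did not stand apart from that of interneurons, 34.5 ± 5.52 CPM. Dentate neurons held 13.8 ± 1.06 CPM, Aqp4 astroglia 4.24 ± 0.993 CPM and endothelium 2.20 ± 3.00 CPM. Of the UMIs of both carriers, Slc2a1 took 99.8% in endothelium, 84.3% in Aqp4 astroglia, 33.1% in dentate neurons, 9.67% in CA3 and 7.91% in CA1.

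**Figure D2:**
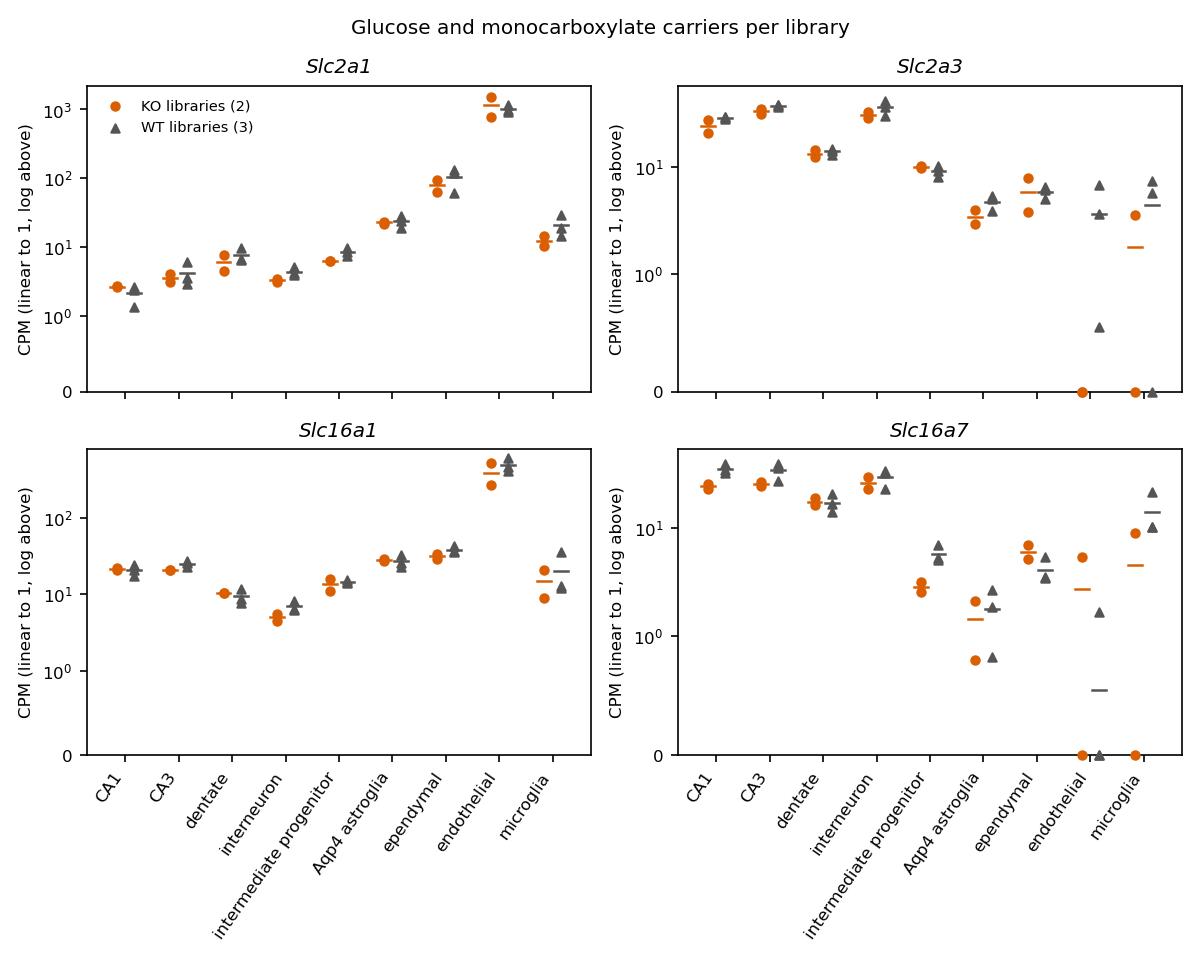
Level of Slc2a1, Slc2a3, Slc16a1 and Slc16a7 by cell type in CPM, on an axis that is linear up to 1 and logarithmic above, with a circle for each KO library, a triangle for each WT library and a bar at each group's mean. The Slc2a1 and Slc16a1 points in endothelium lie above those of every other type shown, and the Slc16a7 points of KO libraries lie below those of WT libraries in CA1 and CA3.

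The hexose phase carried the clearest division of neurons. Hk1, the hexokinase of most adult brain cells, was highest in CA3 (109 ± 10.5 CPM) and CA1 (102 ± 10.8 CPM), which did not differ beyond their spread, and lowest in microglia (8.88 CPM). Hk2, another hexokinase, known to respond to growth and hypoxia signals, was at 86.0 and 51.7 CPM in KO microglia, against 136, 148 and 78.9 CPM in WT microglia. Border macrophages came next with a mean of 40.7 CPM. The lowest microglial library did not lie above every library of the other types. In neurons Hk2 split by field. CA3 held 7.51 and 8.72 CPM in KO libraries, against 12.2, 6.1 and 8.76 CPM in WT libraries. CA1 held 0.858 and 1.05 CPM in KO libraries, against 0.706, 1.32 and 1.04 CPM in WT libraries, that is 2 to 7 UMIs a library. All CA1 libraries were below all CA3 libraries. Dentate neurons held 11.3 CPM and interneurons, the lowest type, 0.519 CPM.

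Gpi1, which turns glucose 6-phosphate into fructose 6-phosphate, was highest in Cajal-Retzius cells at 376 and 368 CPM in KO libraries, against 307, 345 and 336 CPM in WT libraries. Endothelium came next with 258 ± 32.0 CPM, and dentate neurons were lowest with 51.0 CPM. Phosphofructokinase, the committed step, is encoded by 3 genes. Pfkp was highest in CA3 (95.5 ± 8.03 CPM), endothelium (89.7 CPM) and CA1 (89.4 ± 18.5 CPM) and lowest in microglia (3.25 CPM). Pfkm was highest in Aqp4 astroglia (52.0 CPM) and Cajal-Retzius cells (51.2 CPM), and Pfkl in endothelium (71.0 CPM).

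Aldolase splits the hexose, and Aldoc was the astroglial aldolase. It was at 1553 and 1279 CPM in Aqp4 astroglia of KO libraries, against 1445, 1529 and 1383 CPM of WT libraries. Other astroglia held 750 ± 80.4 CPM and dividing astroglia 271 ± 22.3 CPM, and these ranges did not meet. Excitatory neurons held 3.22 CPM, which was 0.224% of the Aqp4 astroglial level. The astroglial marker Mlc1, which gated no cells, was at 0.428% of its own astroglial level in the same neurons, while the astroglial markers Slc1a2 and Ntsr2 were at 9.08 and 12.5% of theirs. Aldoa, the aldolase of most tissues, was highest in Cajal-Retzius cells at 679 ± 16.1 CPM and lowest in intermediate progenitors at 97.0 CPM. Tpi1, which interconverts the triose products, was highest in fibroblasts (258 ± 17 CPM).

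The triose phase genes had their highest means in microglia, dividing astroglia or Cajal-Retzius cells. Gapdh, which oxidizes glyceraldehyde 3-phosphate, was highest in microglia (1211 ± 223 CPM) and dividing astroglia (1171 ± 47.4 CPM), whose libraries overlapped, and lowest in border macrophages (531 ± 94.2 CPM). Pgk1, the first ATP-forming enzyme of the pathway, and Pgam1, the mutase after it, also had their highest means in microglia (269 and 345 CPM). The next means were close, 219 CPM in dividing astroglia for Pgk1 and 340 CPM in interneurons for Pgam1. The lowest microglial libraries were at 165 and 250 CPM, so neither gene stood apart in microglia. Eno1, the general enolase, was highest in dividing astroglia at 221 CPM. Its reads can be shared with the near-identical Eno1b (322 UMIs, against 40365 UMIs for Eno1). These counts do not show how reads matching both genes were handled, so the size of the uncertainty in its level is not known. Eno2, the neuronal enolase, was highest in Cajal-Retzius cells at 20.7 CPM, followed by CA3 at 16.3 CPM. Pkm, pyruvate kinase, was highest in microglia (514 ± 183 CPM) and endothelium (432 ± 45.3 CPM) and lowest in ependymal cells (125 CPM). Its M1 and M2 splice forms are not separated in these counts.

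Lactate genes set endothelium, neurons and astroglia apart. Ldha, the lactate dehydrogenase subunit known from glycolytic tissue, was highest in dividing astroglia at 357 ± 13.1 CPM. CA3 held 342 ± 17 CPM, CA1 295 ± 15.5 CPM and dentate neurons, the lowest type, 107 ± 13.4 CPM. Ldhb, the subunit known from oxidative tissue, was at 333 ± 41.5 CPM in microglia and 325 ± 11.1 CPM in Aqp4 astroglia. Slc16a1, which encodes the monocarboxylate carrier MCT1, was at 270 and 524 CPM in KO endothelium, against 627, 472 and 420 CPM in WT endothelium. All 5 values were above every other type, of which ependymal cells were next with 35.7 CPM. Slc16a7, which encodes MCT2, a carrier of high affinity found on neurons, was highest in border macrophages (41.2 ± 18.1 CPM), CA1 (30.9 CPM) and CA3 (30.9 CPM). It was low in astroglia, with 1.64 CPM in the Aqp4 gate.

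Of the 8 genes for the entry of pyruvate into mitochondria, 4 had their highest level in Cajal-Retzius cells or interneurons. Mpc1, a subunit of the mitochondrial pyruvate carrier, was at 578 and 507 CPM in Cajal-Retzius cells of KO libraries, against 514, 546 and 476 CPM of WT libraries, all above every other type. Mpc2, its partner subunit, was highest in CA3 (428 CPM) and Cajal-Retzius cells (419 CPM). Pdha1, the catalytic alpha subunit of pyruvate dehydrogenase, was highest in Cajal-Retzius cells (159 CPM), and Pdhb and Dlat, the beta subunit and the acetyltransferase, in interneurons (115 and 60.1 CPM). Dld, the shared dehydrogenase subunit, was nearly even, with 86.6 CPM in other astroglia and 37.3 CPM in border macrophages as its extremes. Of the kinases that inactivate the complex, Pdk1 was highest in fibroblasts (44.7 ± 10.6 CPM) and Pdk2 in Aqp4 astroglia (14.9 ± 2.63 CPM).

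Among the 11 TCA cycle genes the highest mean was under 4 times the lowest except for Suclg1 (5.91), Idh3a (5.17) and Mdh1 (4.25). Suclg1, the alpha subunit of succinyl-CoA ligase, was at 476 and 396 CPM in ependymal cells of KO libraries, against 413, 430 and 334 CPM of WT libraries. Each was above every library of the next type, other astroglia, whose mean was 216 CPM. Idh3g, a regulatory subunit of NAD-dependent isocitrate dehydrogenase, was also highest in ependymal cells, at 159 CPM. Its partners differed in place: Idh3a, the catalytic subunit, was highest in interneurons (121 CPM) and Idh3b in mural cells (115 CPM). Cs, citrate synthase, was highest in Aqp4 astroglia (79.2 CPM). Sucla2, the ATP-specific beta subunit of succinyl-CoA ligase, and Mdh1, the cytosolic malate dehydrogenase, were highest in Cajal-Retzius cells (121 and 386 CPM). Mdh2, the mitochondrial form, was highest in interneurons (358 CPM), and Fh1, fumarase, in mural cells (101 CPM).

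**Figure D3:**
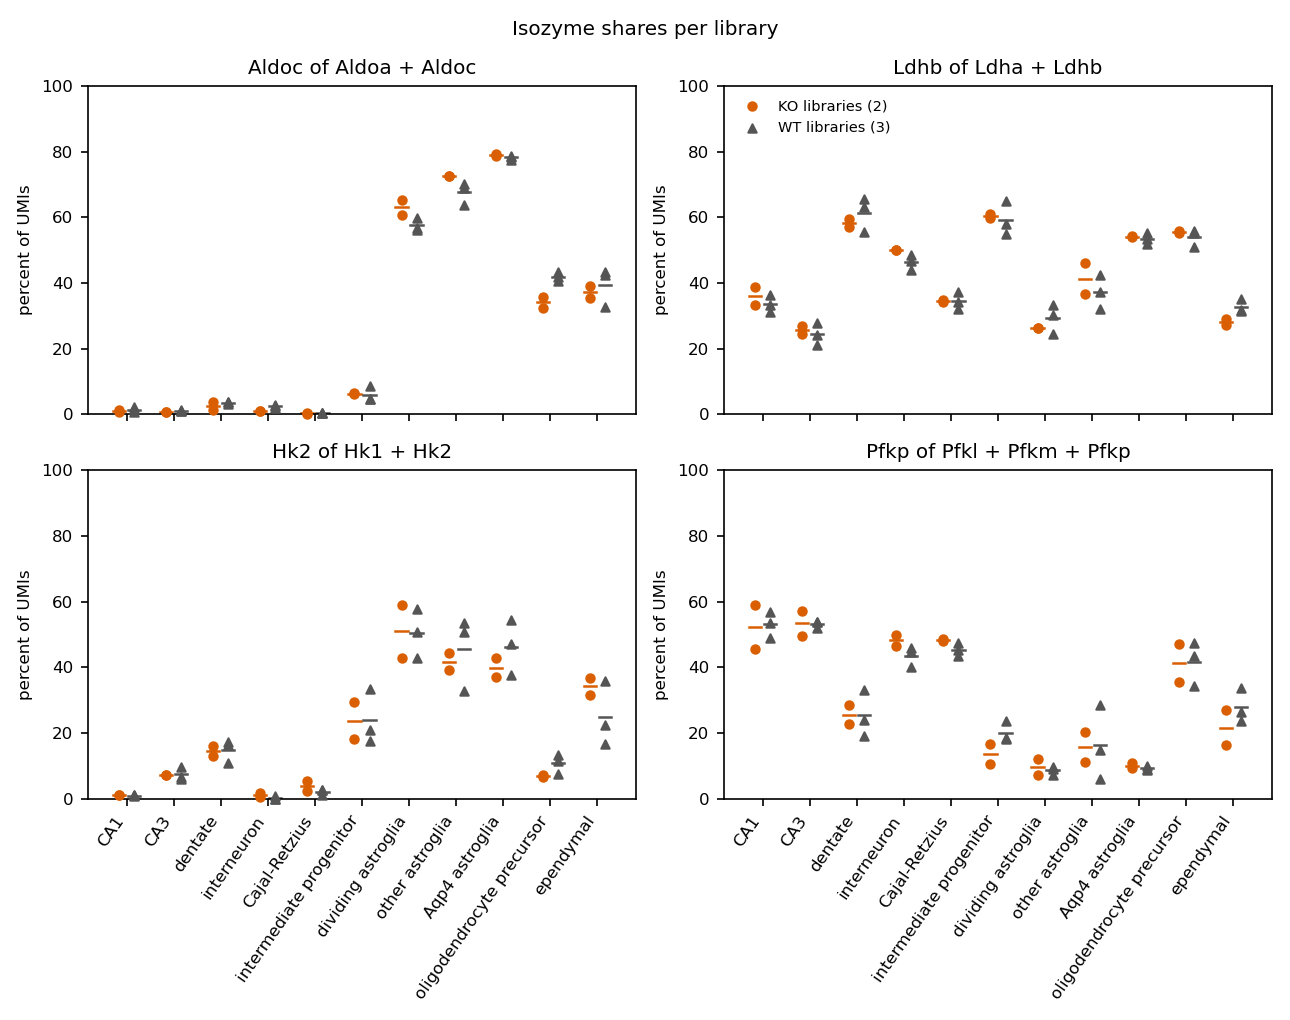
Share of Aldoc, Ldhb, Hk2 and Pfkp among the UMIs of their pair or trio in 11 cell types, in percent, with a circle for each KO library, a triangle for each WT library and a bar at each group's mean. Aldoc takes most aldolase UMIs in the 3 astroglial gates, Ldhb lies below 50% in CA1 and CA3 and above it in dentate neurons, and Pfkp is highest in CA1 and CA3.

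Isozyme choice differed widely between cell types. Shares are percentages of the UMIs of the genes that encode the step. Aldoc made up 79.3 and 78.7% of aldolase UMIs in Aqp4 astroglia of KO libraries, against 77.5, 78.5 and 78.7% of WT libraries. The mean was 69.6% in other astroglia, 59.8% in dividing astroglia, 38.8% in oligodendrocyte precursors, 6.08% in intermediate progenitors and 1.87% in excitatory neurons. Hk2 made up 92.0% of hexokinase UMIs in microglia, where the smallest library had 5 UMIs of both genes, and 44.0% in astroglia. Its share was 14.7% in dentate neurons, 7.29% in CA3 and 0.968% in CA1. Pfkp made up 53.2% of phosphofructokinase UMIs in CA3, 52.8% in CA1, 25.5% in dentate neurons, 17.5% in intermediate progenitors and 11% in astroglia. Pfkl dominated in microglia at 76.6%, although the smallest library there had 4 UMIs of the 3 genes.

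The lactate dehydrogenase pair divided the excitatory fields. Ldhb made up 59.6 and 57.0% in dentate neurons of KO libraries, against 63.0, 65.7 and 55.5% of WT libraries. In CA1 it made up 38.6 and 33.3% in KO libraries, against 33.2, 36.5 and 31.1% in WT libraries, and in CA3 26.8 and 24.6%, against 24.1, 27.8 and 21.3%. The dentate share, a mean of 60.2%, was close to that of intermediate progenitors (59.7%), a gate that uses no division marker. Aqp4 astroglia were at 53.7%, dividing astroglia at 28.1% and endothelium at 13.5%. Eno2 made up 18.0% of enolase UMIs in Cajal-Retzius cells, 10.2% in CA3 and 1.18% in astroglia. Slc16a1 made up 99.5% of the UMIs of both carriers in endothelium, 90.9% in astroglia, 43.7% in excitatory neurons and 18.2% in interneurons. Pdk1 made up 85.0% of the pair with Pdk2 in CA1, 81.3% in fibroblasts and 51.4% in astroglia.

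**Figure D4:**
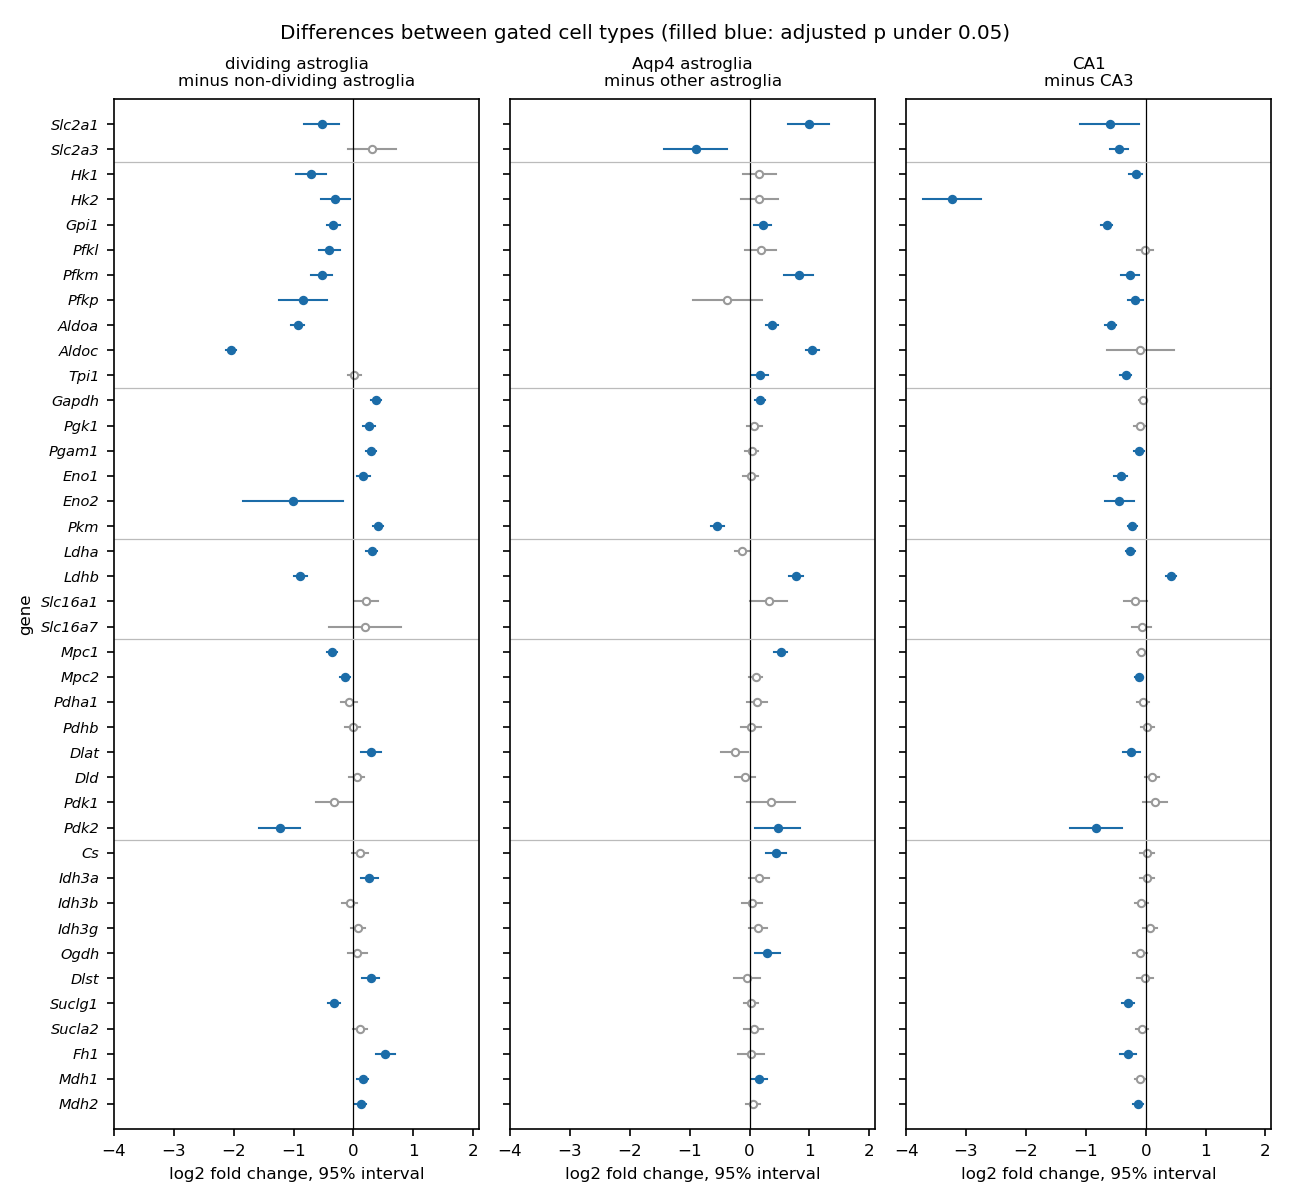
Log2 fold change of each member with its 95% interval in dividing minus non-dividing astroglia, Aqp4 minus other astroglia and CA1 minus CA3, with genes in rows by pathway step; filled points passed an adjusted p of 0.05 by edgeR. Most hexose phase genes lie below 0 in dividing astroglia and in CA1, triose phase genes other than Eno2 lie above 0 in dividing astroglia, and Hk2 is the farthest point in CA1 minus CA3.

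Cell types were then compared within libraries. Counts were summed per library and gate and tested by edgeR's quasi-likelihood test with the library as a block and Benjamini-Hochberg adjustment over all genes. In astroglia minus excitatory neurons, 19 members were higher and 11 lower of 40, and 83.6% of all genes tested were called, 41.1% higher and 42.5% lower. The median log2 fold change of the members was 0.07, against -0.02 for all genes. The aldolase Aldoc was higher by 8.15 (SE 0.107, adjusted p = 3.79e-16 by edgeR), Slc2a1 by 1.72, Hk2 by 1.42, Pdk2 by 1.01, Aldoa by 0.86 and Eno1 by 0.84. Lower in astroglia were Slc16a7 by 3.35 on the log2 scale (SE 0.113, adjusted p = 2.54e-12 by edgeR), with Pfkp at -2.90, Eno2 at -2.28, Slc2a3 at -2.26 and Hk1 at -2.05. By step, 5 of 6 triose phase genes were higher and 5 of 8 genes of pyruvate entry were lower. Of the other pathway genes, 48 were higher and 27 lower of 87 tested. The glycogen list had 7 of 7 genes higher, among them the glycogen phosphorylase Pygb (1.83) and Ugp2, which makes UDP-glucose (1.74). Pcx, pyruvate carboxylase, was higher by 3.91, Pdk4, a further pyruvate dehydrogenase kinase, by 7.44, and Suclg2, the GTP-specific partner of Suclg1, by 4.32.

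Interneurons differed from excitatory neurons by more of the oxidative genes. In interneurons minus excitatory neurons, 26 members were higher and 5 lower of 40, with 56.2% of all genes called (27.8% higher, 28.4% lower), and the member median was 0.27, against -0.02. By step, 10 of 11 TCA cycle genes and 5 of 6 triose phase genes were higher. Aldoa was higher by 1.03 (SE 0.0402, adjusted p = 3.52e-15 by edgeR), and Mdh1 and Pgam1 by 0.63 each. Hk2 was lower (-3.41, on 10 interneuron UMIs over the 5 libraries), as was Slc16a1 (-1.66). The shuttle genes Got1, the cytosolic aspartate transaminase, and Slc25a12, an aspartate-glutamate carrier, were higher by 0.90 and 1.07, in a list of TCA and shuttle genes with 13 higher and 6 lower of 22.

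Intermediate progenitors stood on the other side. In intermediate progenitors minus excitatory neurons, 11 members were higher and 23 lower of 40, with 73.6% of all genes called (37.1% higher, 36.5% lower), and the member median was -0.29, against 0.01. Of the 9 hexose phase genes 7 were lower, with Pfkp at -2.71 (SE 0.113, adjusted p = 2.87e-15 by edgeR) and Hk1 at -1.48. Eno2 (-2.51), Slc16a7 (-2.41), Slc2a3 (-1.50), Pdk1 (-1.26) and Ldha (-1.12) were lower as well. Hk2 (0.62) and Slc2a1 (0.56) were higher, but Hk2 did not pass under the stricter gate (0.27, adjusted p = 0.269 by edgeR) and Slc2a1 did not with the mitochondrial limit at 5% (0.45, adjusted p = 0.0762 by edgeR). Idh2, the NADP-dependent mitochondrial isocitrate dehydrogenase, was higher by 2.05, and Gpd2, of the glycerol phosphate shuttle, was at -1.56.

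Endothelium showed the carrier pattern at its largest. In endothelium minus excitatory neurons, 9 members were higher and 17 lower of 40, with 71.4% of all genes called, 31.1% higher and 40.3% lower. The median was -0.30 for the members, against -0.21 for all genes. Slc2a1 was higher by 7.77 (SE 0.148, adjusted p = 7.44e-53 by edgeR) and Slc16a1 by 4.69 (SE 0.138, adjusted p = 1.39e-41 by edgeR). Gpi1 (1.38), Pfkl (1.09) and Pkm (0.77) were higher, and Ldhb (-1.83) and Pfkm (-1.78) lower. Slc2a3, Slc16a7, Hk2 and Eno2 were also called lower, on 6, 4, 3 and 1 endothelial UMIs over the 5 libraries, and no fold is given for them. Of the 8 genes of pyruvate entry none was higher and 5 were lower. Bsg, the chaperone that brings MCT1 to the membrane, was higher by 4.18, the monocarboxylate carrier gene Slc16a4 by 7.09 and Epas1, the hypoxia-inducible factor of endothelium, by 9.90.

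Dividing astroglia differed from non-dividing astroglia by opposite moves of the 2 glycolytic phases. Non-dividing astroglia were here all astroglia outside the dividing gate, including the Aqp4 gate and the cells between the gates. The comparison therefore does not separate division from the difference between Aqp4 and other astroglia. Of 40 members 12 were higher and 15 lower, with 60.8% of all genes called, 31.1% higher and 29.7% lower. In the hexose phase 8 of 9 genes were lower and none higher, while in the triose phase 5 of 6 were higher and 1 lower. Aldoc was at -2.04 (SE 0.0423, adjusted p = 2.51e-26 by edgeR), Pdk2 at -1.23, Aldoa at -0.93 and Ldhb at -0.88. Fh1 (0.53), Pkm (0.41), Gapdh (0.38) and Ldha (0.31) were higher. The glycogen list had 4 of 7 genes lower and none higher, with Pygb at -0.81 and Pygl, the liver-type phosphorylase, at -1.75. In Aqp4 astroglia minus the gate of other astroglia, 13 members were higher and 2 lower of 38, with 41.0% of all genes called (21.1% higher, 19.9% lower) and medians of 0.15 and -0.01 for members and all genes. Aldoc (1.05), Slc2a1 (0.99), Pfkm (0.82), Ldhb (0.78) and Mpc1 (0.52) were higher and Slc2a3 (-0.90) and Pkm (-0.54) lower. Slc2a3 did not pass by DESeq2 (-0.95, adjusted p = 0.0777) or with doublets kept (-0.53, adjusted p = 0.0892 by edgeR). Members past the threshold numbered 9 by DESeq2, 9 under the stricter gate and 7 with the mitochondrial limit at 5%, against 15 here. Glycogen genes (5 of 7) and hypoxia regulators (6 of 11) were higher in the Aqp4 gate with none lower, led by Pygb (0.88) and Epas1 (2.68).

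CA1 pyramidal neurons held less of most upper glycolysis transcripts than CA3 neurons. In CA1 minus CA3, 1 member was higher and 20 lower of 40, with 43.2% of all genes called, 20.8% higher and 22.4% lower. The member median was -0.11, against 0.01 for all genes. Both glucose carriers, 7 of 9 hexose phase genes and 4 of 6 triose phase genes were lower in CA1, but 3 of 11 TCA cycle genes were. Hk2 was at -3.23 (SE 0.235, adjusted p = 9.38e-11 by edgeR), on the low counts given above. Pdk2 was at -0.83, Gpi1 at -0.65, Slc2a1 at -0.60, Aldoa at -0.58, Slc2a3 at -0.45, Eno2 at -0.44 and Eno1 at -0.42. Slc2a1 did not pass by DESeq2 (adjusted p = 0.215) or by edgeR without WT 2 (-0.46, adjusted p = 0.133), WT 3 (adjusted p = 0.122) or KO 2 (-0.58, adjusted p = 0.113). Pdk2 did not pass under the stricter gate (-0.34, adjusted p = 0.405 by edgeR), nor Eno2 with the mitochondrial limit at 5% (-0.34, adjusted p = 0.0907 by edgeR). Ldhb was the member higher in CA1, by 0.42 (SE 0.0424, adjusted p = 2.4e-08 by edgeR). Of the other pathway genes 7 were higher and 21 lower of 73. Pygb (-0.87), the malic enzyme Me1 (-1.06), the mitophagy receptor Bnip3 (-0.96) and Idh2 (-0.75) were lower.

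**Figure D5:**
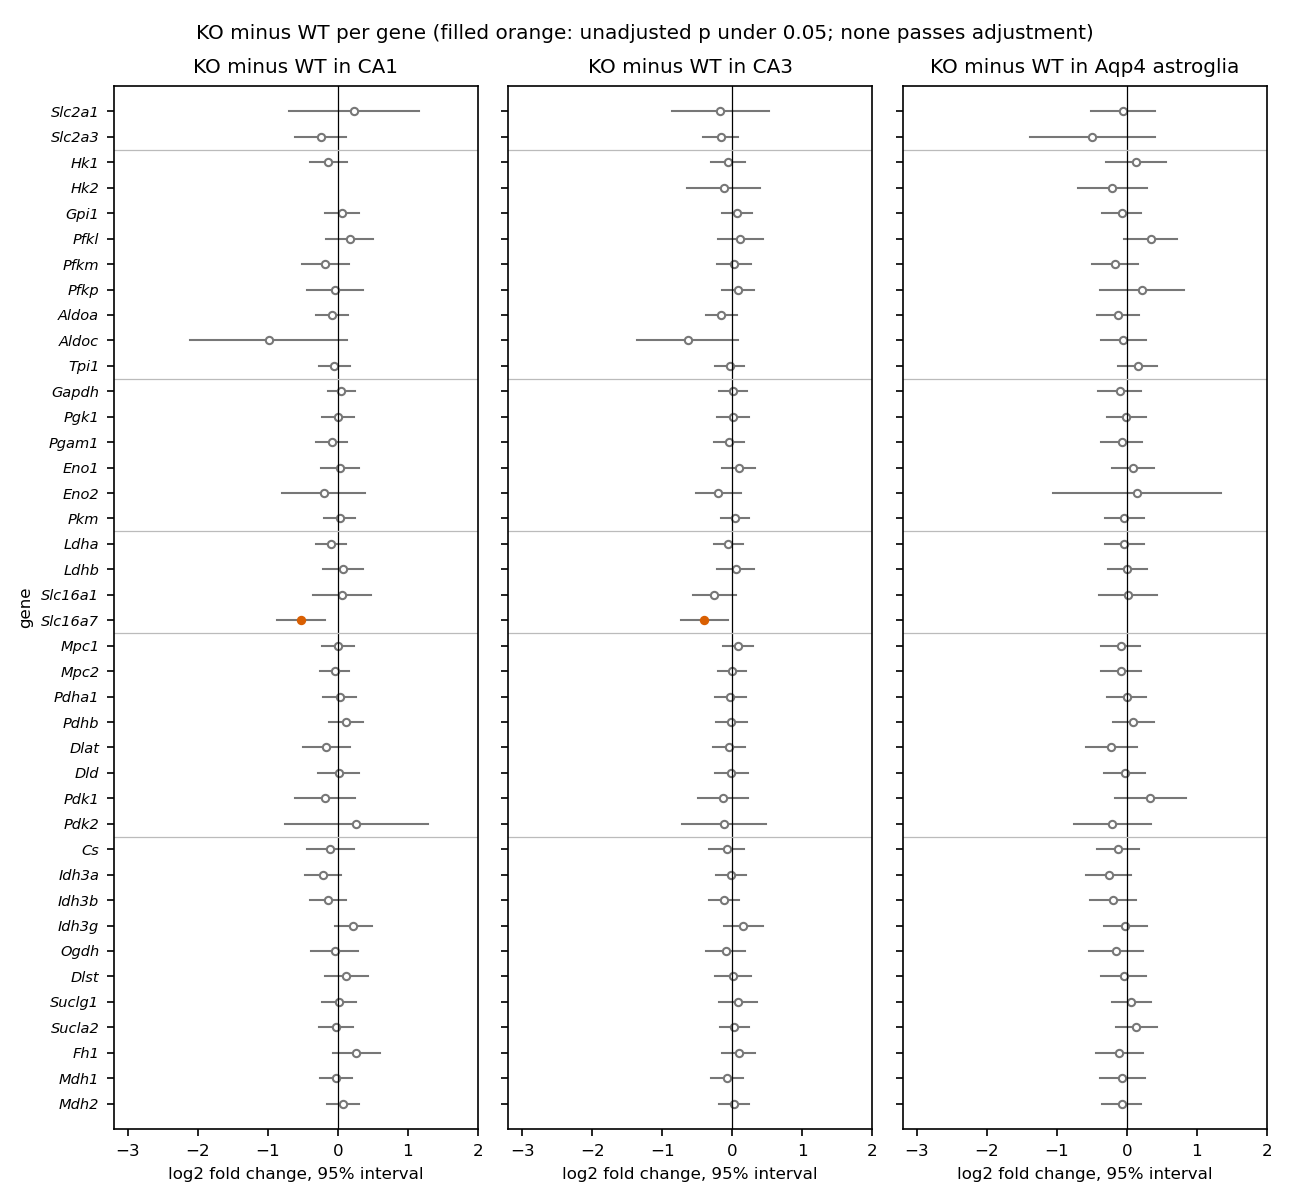
Log2 fold change, KO minus WT, of each member tested in CA1, CA3 and Aqp4 astroglia, with its 95% interval by edgeR; filled points had an unadjusted p under 0.05 and none passed adjustment. Slc16a7 is filled in CA1 and CA3 and lies below 0 in both, and most other points lie near 0.

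Genotypes were compared in the 15 types with at least 20 cells in each library. No member passed an adjusted p of 0.05 in any of them by edgeR's quasi-likelihood test, and DESeq2 also called 0. With the replicate number as a block, edgeR called 1, Aldoc in oligodendrocyte precursors. Over all genes tested, edgeR called 0.00846% in CA1, 0.00898% in Cajal-Retzius cells, 0.00826% in Aqp4 astroglia and 0.0% in the other 12 types. The median change of the members was 0.02 in excitatory neurons, -0.02 in CA1, -0.02 in CA3 and -0.05 in Aqp4 astroglia on the log2 scale. The 95% interval of the change lay within 0.5 of 0 for 36 of 40 members in excitatory neurons, 33 of 40 in CA3, 29 of 39 in CA1, 32 of 40 in astroglia and 26 of 39 in Aqp4 astroglia. In endothelium it did so for 0 of 32, so changes of this size were not resolved there. Summed over the 40 genes, excitatory neurons held 4826 and 4729 CPM in KO libraries, against 4626, 4647 and 4844 CPM in WT libraries, and the groups overlapped. The sum was lower in KO without overlap in CA1, at 5039 and 4941 CPM in KO, against 5228, 5048 and 5045 CPM in WT. In endothelium it was lower too, at 5257 and 5112 CPM in KO, against 5509, 5340 and 5310.0 CPM in WT. In Cajal-Retzius cells it was higher in KO, at 6876 and 6801 CPM, against 6522, 6526 and 6610.0 CPM in WT. In the other 15 gates the groups overlapped, and no test was run on these sums.

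Unadjusted p-values under 0.05 were few among the members and came mostly from Slc16a7 and Aldoc. A single member had one in CA1 (of 39 tested, beside 4.15% of all genes), CA3 (40, 3.49%) and interneurons (39, 5.04%). The same held in dividing astroglia (38, 3.31%), endothelium (32, 2.72%) and ependymal cells (39, 3.26%). Slc16a7 and Aldoc had one in oligodendrocyte precursors (39, 2.90%), and Slc16a7 and Pfkp in intermediate progenitors (39, 2.47%). No member had such a p in excitatory neurons as a whole (2.91% of all genes did), dentate neurons (5.30%), Cajal-Retzius cells (3.03%), astroglia as a whole (1.85%), other astroglia (2.60%), Aqp4 astroglia (2.28%) or fibroblasts (4.68%). In CA1, Slc16a7 was at 23.0 and 25.7 CPM in KO libraries, against 32.5, 34.4 and 39.1 CPM in WT libraries, without overlap. The log2 fold change was -0.52 (SE 0.163, unadjusted p = 0.00612, adjusted p = 0.999 by edgeR), where 4.15% of all genes had an unadjusted p under 0.05. In CA3 it was at 26.8 and 24.8 CPM in KO libraries, against 36.3, 27.4 and 39.3 CPM in WT libraries. The change there was -0.40 (SE 0.155, unadjusted p = 0.0221 by edgeR, background 3.49%), and all of excitatory neurons gave 22.3 and 21.7 CPM in KO, against 24.7, 23.1 and 31.7 CPM in WT. Intermediate progenitors held 2.54 and 3.15 CPM in KO libraries, against 5.02, 5.31 and 6.90 CPM in WT libraries, a change of -1.01 (unadjusted p = 0.02 by edgeR, background 2.47%). Oligodendrocyte precursors held 6.78 and 2.54 CPM in KO, against 11.5, 8.93 and 15.7 CPM in WT, from 3 to 35 UMIs a library (-1.36, unadjusted p = 0.0121 by edgeR, background 2.90%). In dentate neurons the groups overlapped, with 18.8 and 16.2 CPM in KO and 14.1, 16.7 and 20.7 CPM in WT. Slc16a7 was below 0 in 8 of the 10 types tested, which share their libraries and in part their cells.

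Aldoc had its low unadjusted p-values in oligodendrocyte precursors and interneurons. Oligodendrocyte precursors held 71.1 and 57.6 CPM in KO libraries, against 98.0, 100.01 and 104 CPM in WT libraries, a log2 fold change of -0.63 (SE 0.169, unadjusted p = 0.00188, adjusted p = 0.999 by edgeR). With the replicate number as a block it was -0.66 (adjusted p = 0.0194 by edgeR), although no label says that the numbers pair the libraries. WT 1 has no KO library of its number, so that estimate rests on the libraries numbered 2 and 3. Interneurons held 3.44 and 3.67 CPM in KO, against 10.1, 10.4 and 6.60 CPM in WT, a change of -1.19 (SE 0.370, unadjusted p = 0.0048, adjusted p = 0.874 by edgeR, background 5.04%). In Aqp4 astroglia, where the gene is highest, the groups overlapped. Over all kept cells Aldoc was at 151 and 108 CPM in KO and 246, 229 and 139 CPM in WT, and these also overlapped. The interneuron level was 0.476% of the Aqp4 astroglial level. The astroglial marker Mlc1 in the same interneurons was at 0.477% of its own astroglial level, at 1.38 and 2.02 CPM in KO and 2.76, 0 and 1.28 CPM in WT. Slc1a2 and Ntsr2 were at 3.57 and 3.98% of theirs there, and their groups overlapped. In oligodendrocyte precursors the astroglial marker Slc1a2 was also lower in KO without overlap, at 136 and 134 CPM, against 183, 163 and 217 CPM in WT, while Mlc1 and Ntsr2 overlapped. The oligodendrocyte precursor gate kept cells that also passed the astroglial gate. The part of such cells or of free RNA in the Aldoc differences was not tested.

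The remaining unadjusted p-values under 0.05 belonged to 4 members in a single cell type each. Pfkp in intermediate progenitors was at 6.21 and 7.47 CPM in KO, against 13.4, 10.9 and 11.7 CPM in WT (log2 fold change -0.83, unadjusted p = 0.0075 by edgeR). Aldoa in dividing astroglia was at 158 and 155 CPM in KO, against 214, 185 and 203 CPM in WT (-0.37, unadjusted p = 0.00849 by edgeR, background 3.31%). The groups did not overlap for either gene. Gapdh in endothelium was at 431 and 590 CPM in KO, against 688, 650 and 733 CPM in WT (-0.43, unadjusted p = 0.0416 by edgeR, background 2.72%), with 20 cells in KO 2. Hk1 in ependymal cells was at 8.28 and 6.38 CPM in KO, against 11, 12.7 and 12.6 CPM in WT (-0.73, unadjusted p = 0.0447 by edgeR, background 3.26%).

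The share of members whose KO and WT libraries did not overlap lay above that of all genes in some gates and below it in others. They were 7 of 40 in excitatory neurons (17.5%, against 17.9% of all genes), 7 of 40 in CA3 (17.5% against 18.3%), 4 of 40 in dentate neurons (10% against 20.5%), 4 of 39 in intermediate progenitors (10.3% against 16.5%) and 8 of 39 in Cajal-Retzius cells (20.5% against 18.5%). In CA1 they were 10 of 39 (25.6% against 18.2%), 2 higher and 8 lower in KO, and in interneurons 10 of 39 (25.6% against 20.1%). The 7 in CA3 were all lower in KO and include both Slc2a3 and Slc16a7. How the non-overlapping genes among all genes divided between higher and lower was not counted, so these directions have no background. Slc2a3 in CA1 was at 21.2 and 27.8 CPM in KO, against 29.9, 28.4 and 29.7 CPM in WT, and below 0 in 10 of 13 types without passing the unadjusted threshold in any. Among glia and vessels the shares were 17.5% against 14.8% in astroglia, 7.89% against 19.1% in dividing astroglia, 7.89% against 16.5% in other astroglia and 15.4% against 16.6% in Aqp4 astroglia. They were 17.9% against 17.9% in oligodendrocyte precursors, 28.2% against 19.5% in ependymal cells, 28.1% against 17.5% in endothelium and 14.3% against 20.5% in fibroblasts.

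Direction across types was uneven for a few further members. Idh3b was below 0 in 13 of 15 types and Aldoa in 13 of 15, while Suclg1 was above 0 in 14 of 15 and Pfkl in 13 of 15. None of these passed the adjusted threshold in any type. They are the most one-sided among the members, and how many of all genes were as one-sided was not counted. The types share libraries and in part their cells, so the counts are not independent. Isozyme choice was compared in the same 15 types, 150 shares in all, of which 36 did not overlap between KO and WT. With at least 100 UMIs of the pair or trio in every library, 17 of 92 did not overlap, and the median absolute difference was 1.17 percentage points. The largest of these 92 was Pfkm in Aqp4 astroglia, at 45.6 and 46.3% in KO libraries, against 56.8, 47.2 and 59.3% in WT libraries. It differed by -8.46 percentage points (two-sided exact permutation p = 0.2). With 2 libraries against 3 there are 10 assignments and the smallest possible p is 0.1. The genotype difference in CA1 was also set against that in CA3. No member's interaction passed an adjusted p of 0.05 by edgeR (0.0% of all genes did), and the smallest unadjusted p was 0.0714, for Idh3a at -0.20, so 0 members were under 0.05. None of the other pathway genes was called between genotypes in any of the 15 types.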

How the data were processed

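The deposited files hold raw UMI counts per gene and cell barcode for each library, made by the authors with Cell Ranger (6.1 per the submitters' processing notes, 6.1.1 per the file headers) on mm10; the annotation release was not stated in them. Barcodes with at least 500 genes and 1000 UMIs and at most 15% mitochondrial UMIs were kept. Doublets were scored with Scrublet in scanpy 1.11.5, taking its automatic call where it marked at least 0.5% and otherwise the expected number (0.8% per 1000 barcodes). Cells were gated by how many of a cell type's markers had a UMI, with thresholds set after marker distributions were seen. Oligodendrocyte precursor and ependymal gates kept cells that also passed the astroglial gate, and choroid plexus took precedence over ependymal and astroglial gates. Cells passing both macrophage gates went to the one with the larger share of its markers. Cells passing other combinations of non-excitatory gates were left out. The excitatory gate took only cells of no other gate, and some cells with many markers of both were left out. Counts were summed per library and gate and tested with edgeR 4.0.16 (TMM, filterByExpr, quasi-likelihood; Benjamini-Hochberg over all genes), in R 4.3.3, for KO minus WT without covariates and for cell types with the library as a block. SEs are the fold change over the square root of F. The scripts were tested on simulated data. Alternatives were DESeq2 1.42.0, RLE scaling, no filter on low counts, a 5% mitochondrial limit, doublets kept, stricter gates, thinned counts, each library left out, a block for the replicate number and a covariate for male pups. For genotype, members with adjusted p under 0.05 and up to 4 by smallest p were named, for cell types up to 8 per direction by size, and up to 2 genes per further pathway list by smallest p. The members, lists and tests were chosen with earlier results of these data known.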

Additional observations from a re-analysis of the deposited data

How the results depend on the processing

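Counts of members past the threshold were equal to or within 1.5 times of those reported in 294 recomputations and not in 4. Most of the 294 set a count of 0 between genotypes against 0. The exceptions were 1 member in oligodendrocyte precursors (Aldoc, KO minus WT -0.66, adjusted p = 0.0194 by edgeR) with the replicate block, against 0 without it, and Aqp4 minus other astroglia, with 9 by DESeq2, 7 under the 5% mitochondrial limit and 9 under the stricter gate, against 15. No named member changed direction, and in the cell type comparisons 996 recomputations kept the call and 53 lost it. Those that lost it under some setting were Cs, Pdk2 and Slc2a3 in Aqp4 minus other astroglia, Eno2, Pdk2 and Slc2a1 in CA1 minus CA3, Eno2 in dividing astroglia, Hk2, Ldhb and Slc2a1 in intermediate progenitors, Ogdh, Pfkp and Suclg1 in endothelium, Pdk1 in astroglia, and Pdk1 and Pdk2 in interneurons. The causes were not tested. Pups within a library cannot be told apart.

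Pairing by replicate number rests on 2 pairs and on no label. WT 1 has no KO library of its number, so under the block it does not bear on the genotype estimate. Little replication is then left to measure the spread. Same-numbered KO and WT libraries deviated together, with correlations across genes of 0.503 and 0.379 in excitatory neurons and 0.433 and 0.327 in astroglia. The 2 values of a cell type are not separate, because deviations of the 2 KO libraries from their mean mirror each other. By description, KO 2 and WT 2 came from 2 males each, and KO 3 and WT 3 from 1 female with 1 male each. Sex and replicate number therefore cannot be told apart in these pairs. With the replicate block, genes called between genotypes numbered 34 in excitatory neurons, 34 in CA1, 78 in CA3, 181 in dentate neurons, 34 in interneurons, 27 in Cajal-Retzius cells, 48 in intermediate progenitors, 7 in astroglia, 19 in dividing astroglia, 5 in Aqp4 astroglia, 59 in oligodendrocyte precursors, 27 in ependymal cells, 3 in endothelium and 19 in fibroblasts, against 0 or 1 without it. The block left the member count at 0 in the other 14 types.

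Over all genes, DESeq2 called 1 in excitatory neurons, 2 in CA1, 1 in CA3, 1 in dentate neurons, 1 in astroglia, 3 in fibroblasts, 2755 in Aqp4 minus other astroglia (edgeR 4450) and 3321 in CA1 minus CA3 (edgeR 5232). Without the filter on low counts, edgeR called 1 in excitatory neurons, 15 in CA1, 91 in dentate neurons, 46 in interneurons, 17 in Cajal-Retzius cells, 11 in intermediate progenitors, 33 in astroglia, 14 each in dividing astroglia, other astroglia and the interaction, 8 in Aqp4 astroglia, 7 in oligodendrocyte precursors, 18 in ependymal cells, 12 in endothelium and 71 in fibroblasts. With the 5% mitochondrial limit it called 0 in CA1, Cajal-Retzius cells and Aqp4 astroglia, 2 in CA3 and oligodendrocyte precursors, 1 in interneurons and the interaction and 3102 in CA1 minus CA3. The stricter gate gave 0 in CA1 and Aqp4 astroglia, 1 in dentate neurons, intermediate progenitors, fibroblasts and the interaction and 2608 in Aqp4 minus other astroglia. With male pups as covariate it called 1 in excitatory neurons, astroglia and endothelium, 9 in interneurons, Cajal-Retzius cells and Aqp4 astroglia, 10 in intermediate progenitors and 8 in fibroblasts. Thinned counts gave 0 in CA1. With each library left out, the counts ran from 0 to 3 in CA1 and other astroglia, 0 to 1 in CA3 and intermediate progenitors, 0 to 11 in dentate neurons (11 without WT 3), 0 to 9 in interneurons (9 without KO 2, 7 without WT 3), 0 to 2 in Cajal-Retzius cells, astroglia, oligodendrocyte precursors and the interaction, 1 to 3 in Aqp4 astroglia and 0 to 17 in fibroblasts (17 without WT 2).

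Of the isozyme shares, 28 recomputations moved by more than the spread between libraries and 708 did not. Recomputations with a library left out could only count as not moved, because that cannot shift the mean by the full spread. The stricter gate gave Slc2a1 5.10% in CA3 and 77.5% in astroglia, Pfkm 23.3% in CA3 and 35.6% in intermediate progenitors, Pfkp 59.3% in CA1, 56.4% in CA3 and 10.6% in Aqp4 astroglia, Pfkl 19.6% in CA1, Aldoc 76.6% in Aqp4 astroglia, Eno2 12.3% in CA3 and 1.06% in astroglia, and Ldhb 21.4% in CA3, 54.4% in intermediate progenitors and 50.6% in Aqp4 astroglia. With doublets kept, astroglia held Slc2a1 71.8%, Pfkp 14.0%, Eno2 1.36% and Slc16a1 87.5%, and Aqp4 astroglia Pfkp 12.8%. With the 5% mitochondrial limit the shares were Hk2 1.42% in CA1, Pfkm 33.5% in interneurons and 24.8% in oligodendrocyte precursors, Pfkp 40.1% in interneurons, Aldoc 76.2% in astroglia, 74.0% in other astroglia and 79.9% in Aqp4 astroglia, Eno2 6.60% in dentate neurons and Ldhb 37.0% in fibroblasts.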
